A study of Mus musculus with 65 samples.

Results

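Retinoic acid, a signal made from vitamin A, is taken up as retinol, synthesised, bound and degraded in the cell by the products of the genes described here. They are Cyp26a1, Cyp26b1, Cyp26c1, Dhrs3, Crabp1, Crabp2, Stra6, Aldh1a2 and Adh1, chosen by symbol as 9 of the 24465 gene symbols in the RNA count data, together with the chromatin regions and peaks at those genes. The data come from mouse embryonic stem cells that were differentiated with retinoic acid and profiled by RNA-seq (17 libraries) and by ChIP-seq for histone H3.3 and its lysine-27 trimethylation (48 samples, which are 16 libraries of 3 sequencing runs each). In ChIP-seq, an antibody pulls down chromatin that carries a given histone or mark, and the recovered DNA is sequenced.

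Day 6 and day 3 cells were embryoid bodies, rotating aggregates grown without leukaemia inhibitory factor (LIF) and with 10 µM all-trans retinoic acid. Day 0 cells were adherent stem cells kept in serum with LIF. RNA was sequenced in 2019 from wild-type (WT) cells at days 0, 3 and 6, with 2 libraries each. RNA of an H3.3K27A line, of an H3.3A knockout line and of WT cells was sequenced in 2020 at days 6 and 0, with 2 libraries each except 1 for WT at day 0. Both edited lines were made with CRISPR/Cas9, and the number of clones behind each is not given in the labels. ChIP was done in WT cells only, at days 6 and 0, in biological duplicates with 4 antibodies, against H3K27me3, H3, H3.3K27me3 and H3.3. No embryoid bodies without retinoic acid were among the groups, so retinoic acid, loss of LIF, aggregation and time cannot be told apart. In these bulk samples, more cells of a type and more RNA per cell cannot be told apart either.

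Retinol enters cells through STRA6, the membrane receptor for the plasma carrier RBP4. Alcohol dehydrogenases such as ADH1 and retinol dehydrogenases oxidise it to retinaldehyde, DHRS3 reduces retinaldehyde back to retinol, and ALDH1A2 oxidises retinaldehyde irreversibly to retinoic acid. CRABP1 and CRABP2 bind retinoic acid in the cytoplasm, with CRABP2 known for passing it to the nuclear receptors, and the CYP26 enzymes hydroxylate it for disposal. In embryos ALDH1A2 and the CYP26 enzymes set where retinoic acid is present, and Cyp26a1 is a classical target of the retinoic acid receptors, which bind direct repeats of a 6-letter element.

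Such repeats were searched in the 5001 bp centred on each transcription start (2500 bp on either side), on both strands, as 2 copies in the same direction and with a spacer of 1, 2 or 5 bases (DR1, DR2, DR5). A copy could be the element AGGTCA or one of its variants, namely AGTTCA, the related form GGGTCA and the related form GGTTCA. Cyp26a1 was the 1 of the 9 genes with a DR5, against 1.65% of 21000 coding genes, and it had a pair of them. Crabp2 was the 1 gene with a DR2, against 4.71% of coding genes, and none of the 9 had a DR1 (3.62%). Repeats of the 3 kinds that overlap each other were counted for each kind. The matches are shown because these are the windows in which the chromatin peaks below were counted; capitals mark the 2 copies of the element, and sequences are from mm10 (GRCm38.p6).
Cyp26a1 DR5, upstream, chr19:37695909-37695925, plus strand: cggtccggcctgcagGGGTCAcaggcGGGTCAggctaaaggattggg
Cyp26a1 DR5, proximal, chr19:37697776-37697792, minus strand: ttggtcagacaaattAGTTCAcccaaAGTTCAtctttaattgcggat
Crabp2 DR2, upstream, chr3:87947525-87947538, plus strand: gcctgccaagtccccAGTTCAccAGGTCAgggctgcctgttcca
The coordinates are those of the repeats, each printed with 15 flanking bases on either side. Counted along the gene from the transcription start, the repeats lie at -1899 to -1883 and at -32 to -16 of Cyp26a1, and at -1168 to -1155 of Crabp2. A match is a description of the letters and says nothing about binding.

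The proximal repeat of Cyp26a1 is inside its promoter window, 250 bases before to 50 after the start, which is printed here because it lay inside K27me3 peaks at day 0 and in none at day 6. RefSeq (GRCm38.p6) promoter windows were held for 8 of the 9 genes, and 0.115% of 27025 genes had a DR5 in such a window. The window is on the plus strand, in the direction of transcription, and capitals mark the repeat as read on that strand.
Cyp26a1 promoter, chr19:37697558-37697857, plus strand: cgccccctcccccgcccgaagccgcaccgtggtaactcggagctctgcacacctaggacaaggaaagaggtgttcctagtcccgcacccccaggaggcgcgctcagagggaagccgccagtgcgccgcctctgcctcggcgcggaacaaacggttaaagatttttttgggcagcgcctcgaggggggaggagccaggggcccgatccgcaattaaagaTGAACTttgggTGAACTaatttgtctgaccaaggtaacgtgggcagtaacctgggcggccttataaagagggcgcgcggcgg

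The RNA libraries held 6965704 to 12711698 gene counts in 2019 and 14270549 to 22032871 in 2020. Levels are CPM, which are counts set to a common library size by the TMM method. All 10 stem cell markers had counts in every library, and their summed level was 5872 to 7026 CPM at day 0, 648 to 651 CPM at day 3 and 198 to 455 CPM at day 6. H3f3a, the H3.3A gene, was lower than in WT in both edited lines at each day, by log2 values of -2.48 and -2.51 in H3.3K27A (days 0 and 6) and -2.55 and -2.40 in the knockout (days 0 and 6). H3f3b, the second H3.3 gene, was also lower than in WT in H3.3K27A, by -0.67 at day 0 and -0.57 at day 6. In the knockout H3f3b was higher than in WT at day 6 (0.30 ± 0.07, adjusted p = 0.0237, edgeR) and not called at day 0 (0.16 ± 0.08). The knockout libraries of day 6 stood apart from each other, with a chi-square of 47.2 per degree of freedom between their gene counts, against 2.30 to 8.35 in the 7 other groups of 2 libraries. Whether duplicates of the RNA libraries came from separate cultures is not given, and a p-value then covers only the spread among them, which may be technical.

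In WT cells of 2019 all 9 genes were higher at day 3 than at day 0, and all 9 were higher at day 6 than at day 0. Among the 13593 genes tested, 37.6% were called higher and 33.8% lower at day 3 against day 0, and 41.4% higher and 36.6% lower at day 6 against day 0 (edgeR quasi-likelihood test, adjusted p below 0.05). The median log2 change of the 9 genes was 7.32 at day 3 and 7.74 at day 6, beside 0.06 and 0.09 over all genes tested. Dhrs3 had no reads at day 0, and with this gene at its lower bound the medians were the log2 values of Crabp2 at day 3 (5.45) and of Aldh1a2 at day 6 (6.18). From day 3 to day 6 the genes parted, with 3 higher and 4 lower at day 6, against 29.4% of genes higher and 27.9% lower. Markers of other cell types moved in the same libraries. The summed level of 12 markers of primitive, visceral and parietal endoderm was 322 to 348 CPM at day 0, 2722 to 2834 CPM at day 3 and 2428 to 2647 CPM at day 6, with Afp at 0 in both day 0 libraries. That of 8 mesenchyme markers was 19.3 to 20.7 CPM at day 0 (Dcn and Lum at 0), 152 to 153 CPM at day 3 and 1205 to 1394 CPM at day 6. Neuron markers (6 genes) summed to 408 to 472, 42.7 to 63.9 and 1044 to 1256 CPM at days 0, 3 and 6, with Snap25 at 0 in both libraries of days 0 and 3, and neural progenitor markers (6 genes) to 72.4 to 80.2, 195 to 203 and 542 to 584 CPM. Endothelium and blood markers (7 genes) summed to 85.8 to 115, 583 to 588 and 49.8 to 62.0 CPM, with Hbb-bh1 at 0 in both day 0 libraries. Their part in the changes of the 9 genes was not tested.

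Of the CYP26 enzymes, which degrade retinoic acid, Cyp26a1 and Cyp26b1 had made their main rise by day 3. Cyp26a1 (chr19:37697808-37701536, plus strand) had 1.87 and 0.748 CPM at day 0, 1347 and 1287 CPM at day 3, and 765 and 733 CPM at day 6. No day 0 library came near the later ones, and the day 6 pair lay below the day 3 pair. The mean was 1007 times the day 0 mean at day 3 and 573 times at day 6, log2 changes of 10.09 ± 0.16 and 9.28 ± 0.16 (SE; adjusted p = 3.5e-13 and 3.0e-13, edgeR). The size of these changes rests on the day 0 pair: they were 10.74 and 9.93 without the first day 0 library, and 9.40 and 8.58 without the second. The log2 change at day 6 against day 3 was -0.81 ± 0.08 (adjusted p = 3.0e-06, edgeR). Standard errors of such large changes rest on day 0 counts of 12 and 8 reads and can be smaller than the counting error.

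Cyp26b1 (chr6:84571414-84593908, minus strand), the second CYP26 enzyme, had 1.09 and 0.468 CPM at day 0, 701 and 698 CPM at day 3 and 632 and 595 CPM at day 6. Its day 3 mean was 898 times and its day 6 mean 788 times the day 0 mean (log2 9.91 and 9.72). Without the first day 0 library these log2 changes were 10.50 and 10.31, and without the second 9.26 and 9.07. The day 6 libraries were below the day 3 libraries by a log2 difference of -0.19 ± 0.07 (adjusted p = 0.044, edgeR), a call that was lost in the fit of all 17 libraries (adjusted p = 0.449) and without any single library. Cyp26c1 (chr19:37685680-37693307, plus strand), which starts 12128 bp upstream of Cyp26a1 on the same strand, stayed at a low level. It had 1 and 1 reads at day 0, 56 and 79 at day 3, and 91 and 75 at day 6. Its CPM was 45.2 times higher at day 3 (95% interval 12.3 to 377) and 58.2 times higher at day 6 (15.9 to 485) than at day 0; these intervals cover counting error only. Its days 6 and 3 were not separated by the test (log2 difference 0.37 ± 0.22, adjusted p = 0.162, edgeR).

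STRA6, the retinol uptake receptor, followed a similar course. Stra6 (chr9:58129088-58153997, plus strand) had 1.25 and 0.374 CPM at day 0, 280 and 293 CPM at day 3, and 211 and 227 CPM at day 6. Every library of days 3 and 6 was above 200 CPM and no day 0 library above 2 CPM. Its log2 change from day 0 was 8.62 at day 3 and 8.24 at day 6, with ranges of 7.78 to 9.53 and 7.39 to 9.13 when either day 0 library was left out. Its log2 difference of day 6 against day 3 was -0.39 ± 0.08 (adjusted p = 0.0018, edgeR). Crabp2 (chr3:87948693-87953372, plus strand), the carrier that brings retinoic acid to its receptors, had 3.74 and 3.18 CPM at day 0, 151 and 151 CPM at day 3, and 99.6 and 93.8 CPM at day 6. Its day 3 mean was 43.7 times and its day 6 mean 28.0 times the day 0 mean, with a log2 difference of -0.64 ± 0.07 between days 6 and 3 (adjusted p = 9.65e-06, edgeR).

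Crabp1 (chr9:54764748-54773110, plus strand), the other cytoplasmic carrier, was the member with most RNA at day 0 and rose late. It had 16.97 and 15.4 CPM at day 0, 25.3 and 24.6 CPM at day 3, and 127 and 124 CPM at day 6. The day 3 mean was 1.54 times the day 0 mean (log2 0.61 ± 0.11, adjusted p = 0.0003, edgeR), a call lost in the fit of all 17 libraries (adjusted p = 0.152), and the day 6 mean was 5.02 times the day 3 mean. Aldh1a2 (chr9:71215789-71296243, plus strand), the enzyme that makes retinoic acid, had the same order. It had 1.87 and 1.87 CPM at day 0, 9.01 and 13.2 CPM at day 3 and 130 and 147 CPM at day 6, and its main rise came between days 3 and 6 (12.5 times, log2 3.63 ± 0.14, adjusted p = 5.7e-10, edgeR).

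The remaining enzymes act on retinol and retinaldehyde, and both started from nearly no reads. Adh1 (chr3:138277585-138290698, plus strand), an alcohol dehydrogenase, had 0 and 1 reads at day 0, 140 and 148 at day 3, and 204 and 163 at day 6. The ratio of CPM to day 0 was 193 at day 3 (34.3 to 7643) and 258 at day 6 (45.9 to 10199). Days 6 and 3 differed by a log2 value of 0.42 ± 0.15 (adjusted p = 0.034, edgeR), which was lost in DESeq2 (adjusted p = 0.202), in the fit of all 17 libraries and without any single library. Dhrs3 (chr4:144892827-144928209, plus strand), the retinaldehyde reductase, had 0 reads in both day 0 libraries, 68 and 90 at day 3, and 77 and 72 at day 6. Against a floor of 3 counts summed over the day 0 group, it was at least 35.3-fold higher at day 3 and at least 34.9-fold higher at day 6.

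Levels per length put the genes in a different order at each day. Per kb of annotated exon, the 2019 WT level at day 3 was 740 ± 23.8 CPM for Cyp26a1 (SD, n = 2), followed by Crabp2 at 168 ± 0.21, Cyp26b1 at 144 ± 0.34 and Stra6 at 78.7 ± 2.6 CPM. At day 6 Cyp26a1 led with 421 ± 12.8 CPM per kb, Crabp1 had moved to the second place at 156 ± 3.0, and Cyp26b1 stood at 127 ± 5.3 and Crabp2 at 107 ± 4.6. Aldh1a2 at 61.2 ± 5.2 and Stra6 at 60.2 ± 3.0 CPM per kb were neighbours whose difference was within their spread. At day 0 Crabp1 at 20.2 ± 1.4 and Crabp2 at 3.84 ± 0.44 CPM per kb led, and the other 7 genes were below 1 CPM per kb.

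**Figure D1:**
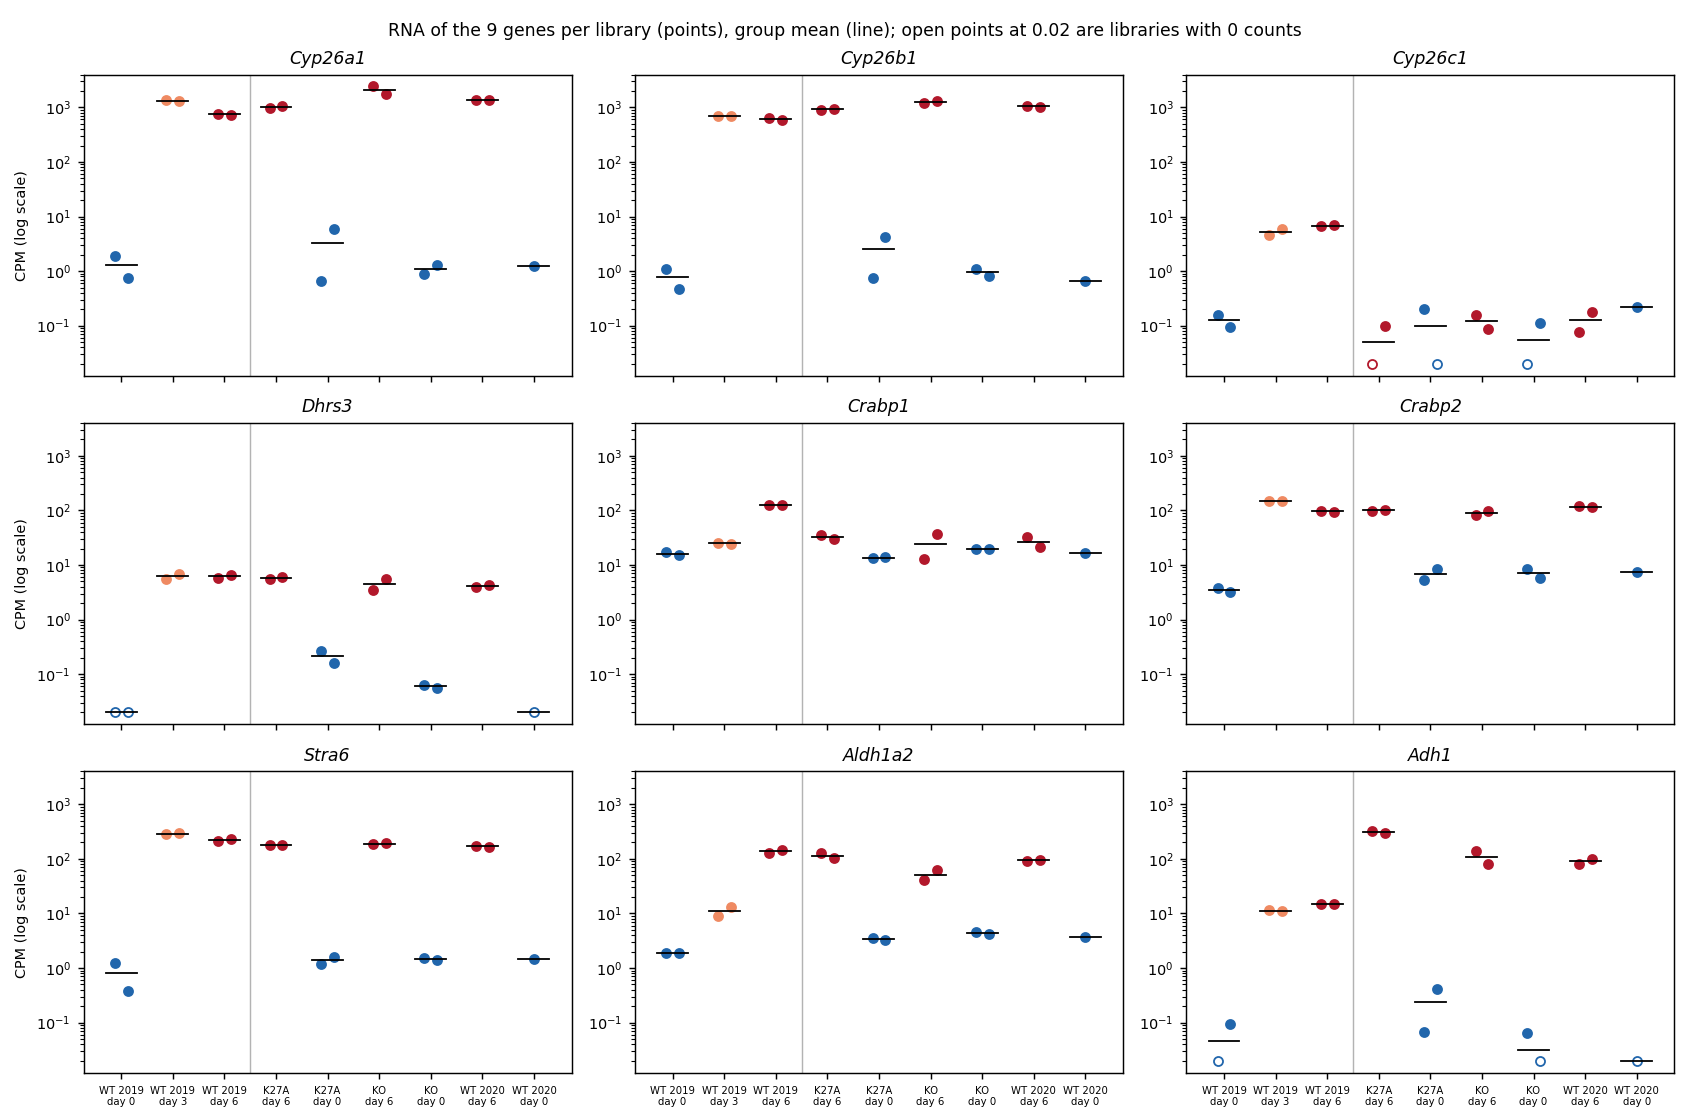
CPM of each gene in every RNA library (points, log axis) with the group mean (line); the panels show the WT series of 2019 at days 0, 3 and 6 left of the grey line and the lines of 2020 right of it, with blue for day 0, orange for day 3 and red for day 6. Open points are libraries with 0 counts. Cyp26a1, Cyp26b1 and Stra6 sit high at every day 3 and day 6, whereas Crabp1 is at 127 and 124 CPM in 2019 WT at day 6 and between 12.6 and 36.2 CPM in the lines of 2020 at day 6.

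Across all 17 libraries the pattern most like that of each gene was found by the Pearson correlation of log2(CPM + 1) over 12833 genes with a mean of at least 1 CPM. It is a description over libraries that share day, line and batch. Cyp26a1 and Cyp26b1 were each other's nearest gene (r = 0.998). The next were Plat for Cyp26a1 (0.994) and Rarb, a retinoic acid receptor, for Cyp26b1 (0.995). Stra6 was nearest to Hoxb2 (0.998) and Plat (0.996), Crabp2 to Rcsd1 (0.994) and Hoxb2 (0.992), and Dhrs3 to Hoxb5os (0.992) and Foxd2os (0.992). Aldh1a2 was nearest to Kif26b (0.994) and Pgf (0.992), Adh1 to Tmem215 (0.993) and Myl3 (0.991), and Crabp1 to Mycl (0.981) and D930015E06Rik (0.968). Cyp26c1 had the loosest neighbours, Slc5a3 (0.954) and Gm3558 (0.951), and its r with its genomic neighbour Cyp26a1 was 0.410.

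The receptors that read retinoic acid gave a mixed picture. Rarb and Rxra were higher at day 6 than at day 0 in both edited lines and both WT series, as Rarb at 169 ± 8.6 CPM at day 6 against 0.296 ± 0.022 CPM at day 0 in 2019 WT (SD, n = 2 each), whereas Rarg and Rxrg were lower in each. No receptor was called by edgeR between H3.3K27A and WT (2 of 6 at day 0 and 1 at day 6 had an unadjusted p below 0.05) or between the knockout and WT (1 at day 0 and 2 at day 6). At day 6, Rxra and Rarg were higher in H3.3K27A than in the knockout, by log2 values of 0.58 ± 0.08 and 0.50 ± 0.09 (adjusted p = 0.0016 and 0.0058, edgeR), and at day 0 none was called between these lines, with 3 at an unadjusted p below 0.05. The change from day 0 to day 6 was lower in WT of 2020 than in WT of 2019 for Rxrg (-2.41 ± 0.62), Rxra (-0.94 ± 0.13) and Rara (-0.71 ± 0.12), each with an adjusted p of 0.0091 or below (edgeR).

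A list of 36 other retinoid genes, of which 35 were in the count data and 20 passed the count filter in 2019, moved in both directions. At day 3 against day 0, 12 were higher and 5 lower, at day 6 against day 0, 10 were higher and 6 lower, and at day 6 against day 3, 9 were higher and 5 lower. Their median log2 change at day 6 against day 0 was 0.73, beside 7.74 for the 9 genes. Rbp4, the plasma carrier bound by STRA6, had 1.12 ± 0.40 CPM at day 0, 16.3 ± 0.95 CPM at day 3 and 166 ± 16.0 CPM at day 6 (SD, n = 2). Ttr, which carries RBP4 in plasma, had 1 read over both day 0 libraries, 83 at day 3 and 404 at day 6. Aldh1a1 and its near-identical paralogue Aldh1a7 had 0 reads at day 0 and 102 and 28 reads at day 6, values that are uncertain because the 2 copies can share reads.

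In the lines of 2020, 8 of the 9 genes passed the count filter, and Cyp26c1 did not, with 0 to 4 reads in each of the 11 libraries. All 8 were higher at day 6 than at day 0 in H3.3K27A cells, against 39.5% of 14760 genes higher and 37.2% lower. In the H3.3A knockout 7 of 8 were higher, against 40.8% higher and 36.4% lower, and in WT 7 of 8 were higher, against 36% higher and 34.8% lower. The exception in the knockout and in WT was Crabp1.

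Cyp26a1 had 958 and 1049 CPM in H3.3K27A cells at day 6, against 0.672 and 5.90 CPM at day 0. In the knockout it had 2417 and 1771 CPM at day 6, against 0.895 and 1.32 CPM at day 0, and in WT 1376 and 1364 CPM at day 6, against 1.26 CPM at day 0. The day 6 levels were highest in the knockout and lowest in H3.3K27A, without overlap between the 3 lines. Cyp26b1 had 899 and 948 CPM in H3.3K27A at day 6, against 0.739 and 4.29 CPM at day 0. In the knockout it had 1215 and 1309 CPM at day 6, against 1.09 and 0.826 CPM at day 0, and in WT 1074 and 1003 CPM at day 6, against 0.655 CPM at day 0. For both genes, 1 of the H3.3K27A libraries of day 0 was above every other day 0 library of 2020, with 73 reads of Cyp26a1 and 53 of Cyp26b1, against 10 and 11 reads in its duplicate. The log2 change from day 0 to day 6 in H3.3K27A was 8.32 for Cyp26a1 and 8.58 for Cyp26b1, came to 10.52 and 10.26 without that library, and to 7.38 and 7.73 without its duplicate.

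Stra6 lay between 168 and 196 CPM in every day 6 library of 2020. It had 182 and 178 CPM in H3.3K27A at day 6, against 1.21 and 1.62 CPM at day 0. It had 184 and 196 CPM in the knockout at day 6, against 1.53 and 1.38 CPM at day 0, and 175 and 168 CPM in WT at day 6, against 1.47 CPM at day 0. Crabp2 had 98.6 and 102 CPM in H3.3K27A at day 6, against 5.37 and 8.41 CPM at day 0. It had 82.0 and 98.1 CPM in the knockout at day 6, against 8.56 and 5.89 CPM at day 0, and 119 and 114 CPM in WT at day 6, against 7.37 CPM at day 0. Each of these day 6 libraries was above every day 0 library. Dhrs3 had 142 and 124 reads in H3.3K27A at day 6, against 4 and 2 at day 0. It had 65 and 126 reads in the knockout at day 6, against 1 and 1 at day 0, and 101 and 99 reads in WT at day 6, against 0 at day 0. Its ratio of day 6 to day 0 CPM was 27.4 in H3.3K27A, 77.4 in the knockout (21.1 to 644) and at least 25.1 in WT.

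Crabp1 gained little in 2020. It had 35.6 and 30.0 CPM in H3.3K27A at day 6, against 13.4 and 13.7 CPM at day 0 (log2 1.26 ± 0.41, adjusted p = 0.017, edgeR), a call that held without the second day 6 library and was lost without any other (adjusted p = 0.072 to 0.0873). In the knockout its libraries were split, with 12.6 and 36.2 CPM at day 6, against 19.9 and 19.3 CPM at day 0. The log2 change there was 0.33 ± 0.39 (adjusted p = 0.457, edgeR). It was -0.66 without the second day 6 library and 0.88 without the first. In WT it had 32.3 and 21.1 CPM at day 6, against 16.3 CPM at day 0 (log2 0.70 ± 0.50, adjusted p = 0.231, edgeR).

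Of the 23 other retinoid genes tested in 2020, 16 were higher and 4 lower at day 6 in H3.3K27A, 16 higher and 5 lower in the knockout, and 13 higher and 4 lower in WT. Rbp4 averaged 320 ± 18.2 CPM at day 6 in H3.3K27A, against 1.87 ± 0.56 CPM at day 0 (SD, n = 2 each), and WT of 2020 averaged 294 ± 0.88 CPM at day 6 (n = 2), against 1.37 CPM at day 0 (n = 1).

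Between lines at day 0, no member was called in any comparison. For H3.3K27A against WT, 0.569% of genes were higher and 1.17% lower, for the knockout against WT 0.0271% were higher and 0.0949% lower, and for H3.3K27A against the knockout 0.461% were higher and 0.806% lower. At an unadjusted p below 0.05 edgeR had 1 member for H3.3K27A against WT and 0 in the other comparisons, and DESeq2 called 0 members in each. The 2 genes with a duplicate that stood apart did not pass: for H3.3K27A against WT the log2 difference was 1.30 for Cyp26a1 (adjusted p = 0.65, edgeR) and 1.85 for Cyp26b1 (adjusted p = 0.419, edgeR). Without the first H3.3K27A library Cyp26b1 was called against WT (2.70, adjusted p = 0.0118) and against the knockout (2.17, adjusted p = 0.0213). Without the second the Cyp26b1 difference from WT was 0.17 and that of Cyp26a1 -0.90.

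At day 6 the lines differed in Adh1, Aldh1a2 and Cyp26a1. Adh1 had 323 and 297 CPM in H3.3K27A, 141 and 78.9 CPM in the knockout, and 82.3 and 100.5 CPM in WT. It was higher in H3.3K27A than in WT by a log2 value of 1.76 ± 0.23 (3.39 times, adjusted p = 0.0089, edgeR) and higher than in the knockout by 1.49 ± 0.23 (2.82 times, adjusted p = 0.0025, edgeR). The H3.3K27A pair did not overlap with any other library of day 6. The call against WT was lost without any single library of the 4 (adjusted p = 0.0659 to 0.147), with log2 values of 1.61 to 1.91. Adh1 was the 1 member of 8 called higher in H3.3K27A against WT, and none was lower, against 1.13% of genes higher and 0.908% lower.

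Aldh1a2 had 126 and 103 CPM in H3.3K27A, 40.7 and 61.6 CPM in the knockout, and 93.2 and 94.5 CPM in WT. The knockout libraries were the lowest of day 6, and the H3.3K27A pair lay above the WT pair. The knockout was lower than WT by a log2 value of -0.86 ± 0.18 (0.545 times, adjusted p = 0.016, edgeR), and this call was lost without either WT library (adjusted p = 0.0918 to 0.103). It was the 1 member called lower in the knockout against WT and none was higher, against 4.42% of genes lower and 6.98% higher. H3.3K27A was above the knockout by a log2 value of 1.14 ± 0.18 (2.24 times, adjusted p = 0.0025, edgeR), and above WT by 0.28 ± 0.17, which did not pass (adjusted p = 0.497, edgeR).

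Cyp26a1 was lower in H3.3K27A than in the knockout at day 6 by a log2 value of -1.07 ± 0.32 (0.479 times, adjusted p = 0.0436, edgeR). This call did not hold with DESeq2 size factors (adjusted p = 0.051), by DESeq2 (0.349) or without either H3.3K27A library (0.175 to 0.248). It was 1 of 3 members called between these lines, with Adh1 and Aldh1a2 higher, against 9.03% of genes higher and 9.64% lower. Against WT, Cyp26a1 differed by -0.46 ± 0.31 in H3.3K27A (adjusted p = 0.562, edgeR) and by 0.62 ± 0.31 in the knockout (adjusted p = 0.231, edgeR).

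The knockout comparisons rest on 2 libraries that differed from each other. The summed level of 12 markers of primitive, visceral and parietal endoderm was 11877 to 20972 CPM in them at day 6, against 3543 to 4373 CPM in H3.3K27A and 4210 to 5354 CPM in WT of 2020, with counts for all 12 markers in every one of these libraries. Its part in the differences of Adh1, Aldh1a2 and Cyp26a1 was not tested. Without the second knockout library of day 6, the log2 values of the knockout against WT were 0.81 for Cyp26a1, 0.62 for Adh1, -1.09 for Crabp1 and -0.52 for Crabp2. Those of H3.3K27A against the knockout were then 0.77 for Dhrs3 and 1.39 for Crabp1. Without the first, the values of the knockout against WT were 0.44 for Crabp1 and -0.21 for Adh1. That of Cyp26b1 in H3.3K27A against the knockout was then -0.52. Each of these fits left a single knockout library at day 6, so only sizes are given here. Stra6 was not called between lines at day 6, with log2 values of 0.06 ± 0.08 for H3.3K27A against WT, 0.16 ± 0.08 for the knockout against WT and -0.10 ± 0.08 for H3.3K27A against the knockout (adjusted p = 0.794, 0.225 and 0.436, edgeR). Cyp26b1, Crabp1, Crabp2 and Dhrs3 were not called in any of the 3 comparisons at day 6, with log2 differences from -0.47 to 0.51.

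**Figure D2:**
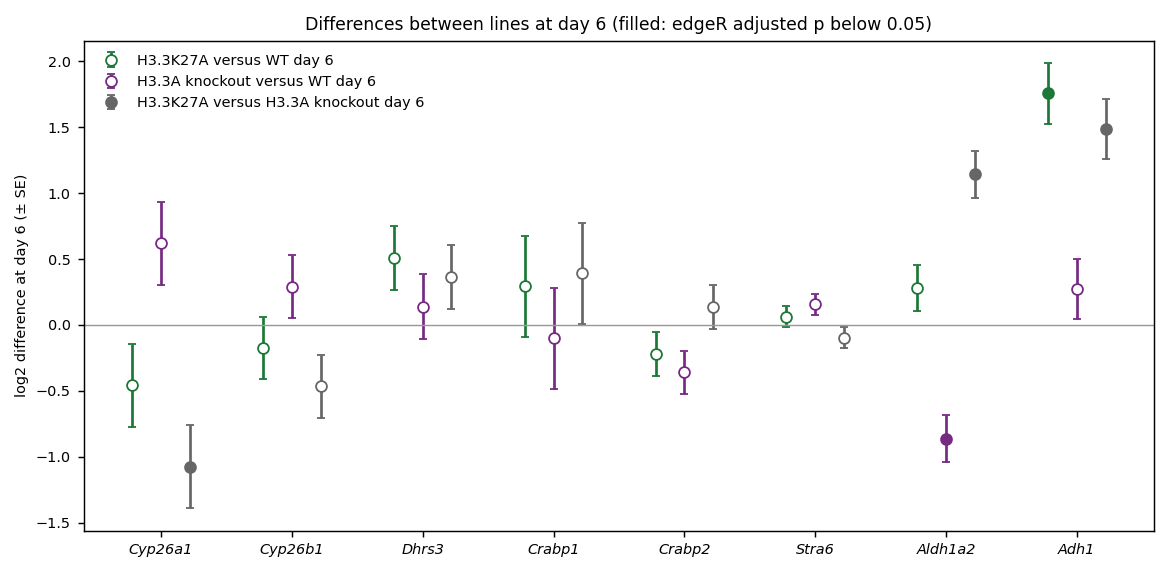
Log2 difference in RNA at day 6 between lines (points, with bars for ± SE) for the 8 genes tested in 2020; green is H3.3K27A against WT, purple the knockout against WT and grey H3.3K27A against the knockout. Filled points passed an adjusted p below 0.05: Adh1 at 1.76 and 1.49 and Aldh1a2 at 1.14 lie above 0, and Aldh1a2 at -0.86 and Cyp26a1 at -1.07 below it.

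Of the other retinoid genes at day 6, 4 were higher in the knockout than in WT (Ttr, Rdh10, Rdh13 and Fabp5) and 1 lower (Aldh1a7), and none of 23 was called between H3.3K27A and WT by edgeR, with 5 at an unadjusted p below 0.05. Rdh10, the retinol dehydrogenase that supplies retinaldehyde in embryos, had 106 CPM on average in the knockout at day 6, against 58.9 CPM in WT, a log2 difference of 0.86 ± 0.16 (adjusted p = 0.0103, edgeR). It was lower in H3.3K27A than in the knockout by -1.09 ± 0.16 (adjusted p = 0.0019, edgeR), as 1 of 5 lower and 2 higher genes of the list. At day 0, Fabp5, another carrier of retinoic acid, was lower in H3.3K27A than in WT by -1.24 ± 0.20 (adjusted p = 0.0165, edgeR).

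The change from day 0 to day 6 was also compared between lines by an interaction term. Aldh1a2 rose further in H3.3K27A than in the knockout, by a log2 value of 1.53 ± 0.34 (adjusted p = 0.035, edgeR), and was the 1 of 8 members called, against 3.23% of genes with a larger and 2.16% with a smaller change in H3.3K27A. Its change was a log2 value of 5.07 ± 0.24 in H3.3K27A and 3.54 ± 0.22 in the knockout. This call held without either knockout library of day 6 and was lost without any of the other 6 libraries (adjusted p = 0.0538 to 0.146). The same term for Cyp26a1 was -2.53 ± 0.82 (adjusted p = 0.113, edgeR) and for Cyp26b1 -1.78 ± 0.67 (adjusted p = 0.165, edgeR), and it came to -0.33 and -0.10 without the second H3.3K27A library of day 0. Without the first of these libraries it came to -3.46 and -2.63. No member was called for H3.3K27A against WT, where 0.549% of genes changed more and 0.217% less, nor for the knockout against WT, where 0.0407% changed more and 0.0407% less. At an unadjusted p below 0.05 there were 2 members for H3.3K27A against WT and 1 for the knockout against WT, and DESeq2 called 0 in both. Without the second knockout library of day 6, the term of Aldh1a2 for the knockout against WT was -1.48.

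The WT series of 2020 and 2019 did not change alike. In 1 fit of all 17 libraries, 4 of the 9 genes had a smaller change from day 0 to day 6 in 2020 than in 2019 and none a larger one, against 19.7% of 15343 genes smaller and 9.82% larger. Cyp26c1 had 2 and 4 reads in WT of 2020 at day 6 and 4 at day 0, against 91 and 75 reads in WT of 2019 at day 6 and 1 and 1 at day 0. The difference of its changes was a log2 value of -6.56 ± 1.57 (adjusted p = 0.0062, edgeR), and -7.18 to -6.08 with 1 library left out. Crabp1 was at 26.7 ± 7.9 CPM at day 6 in 2020 and 125 ± 2.4 CPM in 2019 (SD, n = 2 each), a difference of changes of -2.24 ± 0.52 (adjusted p = 0.0052, edgeR).

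Aldh1a2 changed less in 2020 by -1.52 ± 0.46 (adjusted p = 0.022, edgeR), which was lost without either 2019 library of day 0 (adjusted p = 0.059 and 0.0954). Stra6 changed less by -1.41 ± 0.42 (adjusted p = 0.021, edgeR), a value of -0.58 (adjusted p = 0.475) without the second 2019 library of day 0. Crabp2 had a difference of -0.84 ± 0.32, which did not pass (adjusted p = 0.0633, edgeR), and was called in DESeq2 (adjusted p = 0.0399). The day 0 levels differed between the series as well. The 1 WT library of 2020 at day 0 had 1.47 CPM of Stra6, 3.66 of Aldh1a2 and 7.37 of Crabp2. The day 0 means in WT of 2019 were 0.81, 1.87 and 3.46 CPM. At day 6 the means of these genes were 172, 93.9 and 116 CPM in 2020, against 219, 139 and 96.7 CPM in 2019. Crabp2 at day 6 was thus higher in 2020. The series differ in sequencing date and depth, and their cells differed in markers. At day 6 the summed level of 6 neuron markers was 145 to 268 CPM in WT of 2020 against 1044 to 1256 CPM in WT of 2019, of 6 neural progenitor markers 159.5 to 197 against 542 to 584 CPM, and of 8 mesenchyme markers 384 to 425 against 1205 to 1394 CPM, with every marker counted in every library. The 12 endoderm markers went the other way, with 4210 to 5354 CPM in WT of 2020 against 2428 to 2647 CPM in WT of 2019. The 7 endothelium and blood markers summed to 25.2 to 27.5 against 49.8 to 62.0 CPM. At day 0 the mesenchyme markers summed to 366 CPM in the 1 WT library of 2020, against 19.3 to 20.7 CPM in 2019. Endoderm markers summed there to 715 against 322 to 348 CPM, and neuron markers to 546 against 408 to 472 CPM. Neural progenitor markers summed to 87.4 against 72.4 to 80.2 CPM. Endothelium and blood markers overlapped (113 against 85.8 to 115 CPM), and stem cell markers were at 5872 against 6146 to 6231 CPM. Their part in these differences was not tested. The level of Adh1 at day 6 was 82.3 and 100.5 CPM in WT of 2020, against 15.1 and 15.0 CPM in WT of 2019, and its difference of changes could not be measured well from 0 and 1 reads at day 0 (adjusted p = 0.369, edgeR).

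In chromatin of WT cells, a peak was counted at a gene if a filtered peak of the authors overlapped by at least 1 bp the 5001-bp window around its start. H3K27me3 is the mark that Polycomb repressive complex 2 places at silent developmental genes, H3.3K27me3 is the same mark on the H3.3 variant, and H3.3 itself is placed outside replication, often at active genes. A library gave 9608 to 26215 filtered peaks. H3K27me3 peaks were at 2 of the 9 genes at day 6 in both duplicates (Crabp1 and Aldh1a2) and at 7 at day 0, all but Adh1 and Cyp26b1, which had a peak in 1 duplicate. Of 21000 coding genes 12.3% had such a peak at day 6 and 20% at day 0. H3.3K27me3 peaks were at none of the 9 at day 6 and at 5 at day 0 (Cyp26a1, Cyp26c1, Crabp1, Crabp2 and Aldh1a2), against 3.49% of coding genes at day 6 and 12.3% at day 0. Depth differed too: at day 6 the duplicates for H3.3K27me3 held 33.6 and 37.8 M tags (M for mega), the fewest of all 16 libraries, against 81.2 and 55.2 M tags at day 0. They gave 26215 and 14483 filtered peaks over the genome, against 14796 and 12690 at day 0. The part of depth in the missing peaks was not tested, and no region signal of H3.3K27me3 was analysed here beside them.

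Of the 7 genes with H3K27me3 at day 0, 5 had no such peak in either duplicate at day 6, namely Cyp26a1, Cyp26c1, Dhrs3, Crabp2 and Stra6. Among all 4190 coding genes with the mark at day 0 this was so for 21.6%. Of the 5 genes with H3.3K27me3 at day 0, 4 had none in either duplicate at day 6, against 55.9% of 2590 coding genes. No test was made of these counts, and the genes are too few for a share. In H3K27me3 at day 6, calls outside the filtered lists still lay in the Crabp2 window in both duplicates and in the Cyp26c1 window in 1. How the lists were filtered is not given in the sources used here. H3.3 peaks were at 5 genes at day 6 (Cyp26c1, Dhrs3, Crabp2, Stra6 and Adh1) and at 3 at day 0 (Cyp26a1, Cyp26c1 and Crabp2), against 27.5% of coding genes at day 6 and 40.4% at day 0. Stra6 and Adh1 had an H3.3 peak in both duplicates at day 6 and in neither at day 0, a pattern of 5.5% of the 5783 coding genes with H3.3 at day 6. No H3 peak was at any of the 9 genes at either day.

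**Figure D3:**
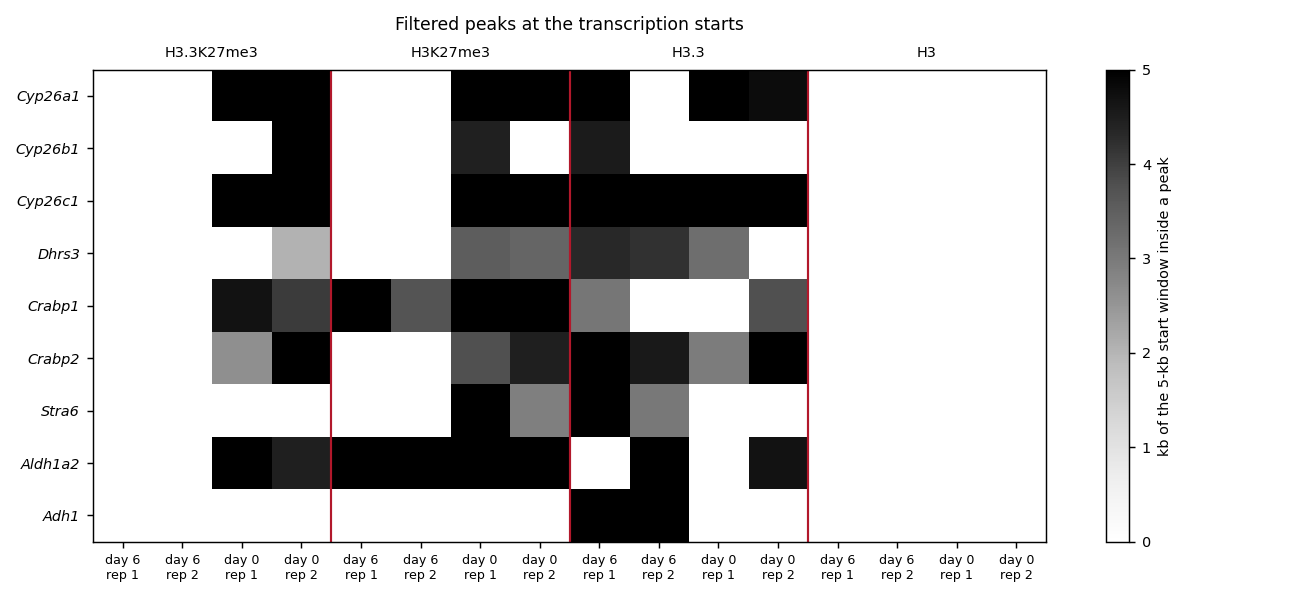
Filtered peaks at the transcription starts of the 9 genes in the 16 ChIP libraries; the shade gives the kb of the 5001-bp window that lie inside a peak. The H3.3K27me3 columns of day 6 hold only the 17 bp of Aldh1a2 in 1 library, those of H3K27me3 at day 6 hold Crabp1 and Aldh1a2 only, and the H3 columns are empty.

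Crabp1 and Aldh1a2 were the genes that kept filtered H3K27me3 peaks in their start windows. With the gene body and 2500 bp before the start as the window, Cyp26b1 had such a peak in both day 0 duplicates. It kept 1 there in the first day 6 duplicate and none in the second. The authors' enrichment, the pileup of a call over the genome-wide mean, was 2.59 and 3.08 at the Crabp1 start in H3K27me3 at day 6, against 5.19 and 7.22 at day 0. The peaks there were 8.28 and 6.80 kb long at day 6, against 28.5 and 30.5 kb at day 0, so that the gene kept the mark over a shorter stretch. At Aldh1a2 the enrichment was 2.88 and 2.62 at day 6, against 4.56 and 5.07 at day 0, and the peaks were 27.1 and 21.0 kb long at day 6, against 26.0 and 47.7 kb at day 0. In H3.3K27me3 the Crabp1 start had no peak in either day 6 duplicate, and 1 day 6 duplicate had a peak that reached 17 bp into the Aldh1a2 window. With the gene body as the window, Aldh1a2 had a filtered H3.3K27me3 peak in both day 6 duplicates.

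Cyp26c1 and Cyp26a1 lie in 1 K27me3 domain of the stem cells. At day 0 H3.3K27me3 peaks of 29.6 and 30.7 kb and H3K27me3 peaks of 56.2 and 27.4 kb covered both starts in full, with both DR5 repeats of Cyp26a1 inside. At the Cyp26a1 start the enrichment was 3.37 and 3.32 in H3.3K27me3 and 3.62 and 5.22 in H3K27me3. At day 6 neither mark had a filtered peak within 60 kb of the Cyp26a1 start in either duplicate. H3.3 peaks covered both starts in the day 0 duplicates and in 1 of the day 6 duplicates, and the other day 6 duplicate covered the Cyp26c1 start only.

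**Figure D4:**
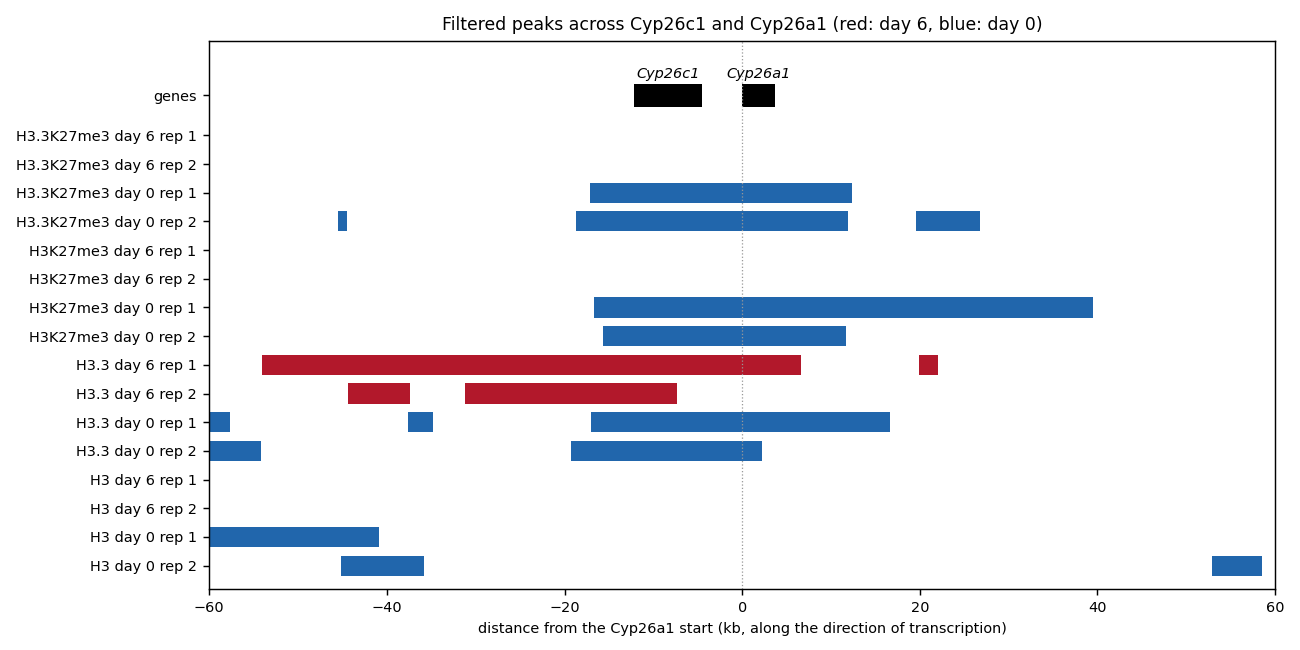
Filtered peaks in each ChIP library across the Cyp26c1 and Cyp26a1 genes (black boxes), by distance in kb from the Cyp26a1 start in the direction of transcription; red bars are day 6 and blue bars day 0. The rows of H3.3K27me3 and H3K27me3 at day 6 are empty, while the day 0 peaks over the genes begin between -18.8 and -15.7 kb and end between 11.7 and 39.5 kb.

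Signal per region gave a log2 change for each region, over stretches of unlike length that can reach beyond the genes. The authors' tables give, for each region and library, reads scaled to the library with fewest tags, and the change in H3.3K27me3 signal was not analysed here. All 7 H3K27me3 regions at the genes were lower at day 6, against 39.4% of 10491 regions lower and 5.56% higher (limma on log2 signal, adjusted p below 0.05). Adh1 had no H3K27me3 region. The region at Dhrs3 (chr4:144891647-144895308) had 65.2 and 34.0 scaled reads at day 6, against 196 and 198.5 at day 0, a log2 change of -2.04 ± 0.19 (adjusted p = 2.7e-26, limma). Only 1 of the 10491 regions had a lower log2 change. Its SE draws on the spread of all regions, while its own 2 day 6 libraries lay apart. With 1 library left out the log2 change was -2.50 to -1.58, and the authors' false discovery rate for this region was 3.2e-05.

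The region at Cyp26b1 (chr6:84572893-84595848) had 532 and 447 scaled reads at day 6, against 1378 and 1517 at day 0 (log2 -1.57 ± 0.07, adjusted p = 1.6e-93, limma), with 5 regions lower. The region over Cyp26c1 and Cyp26a1 (chr19:37681133-37737346) had 1301 and 1193 scaled reads at day 6, against 2497 and 2647 at day 0 (log2 -1.04 ± 0.06, adjusted p = 1.5e-66, limma). The changes were smaller at Stra6 (-0.73 ± 0.07), Crabp2 (-0.50 ± 0.05), Crabp1 (-0.49 ± 0.07) and Aldh1a2 (-0.31 ± 0.06), each called with an adjusted p of 1.6e-06 or below (limma). The regions are of unlike length, from 3.66 kb at Dhrs3 to 93.0 kb at Crabp2, and a value covers the whole region, not the gene alone. The authors named the Crabp2 region after Bcan and the 49.1-kb Aldh1a2 region after Gm3458. Crabp1 and Aldh1a2, which kept an H3K27me3 peak at their start, were among the 3 regions with the smallest loss, and the values of Crabp1 and Crabp2 lay within each other's error. In the regions of all 7 the day 6 libraries lay below the day 0 libraries without overlap, and the share of all regions that did so was not counted. The library medians over all H3K27me3 regions were lower at day 6 too, at 426 and 416 scaled reads against 464 and 477 at day 0.

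In H3.3, 7 of 10 regions at the genes were higher at day 6, 1 was lower and 2 were not called, against 18.4% of 14812 regions higher and 43.7% lower (limma). The region at Dhrs3 (chr4:144891006-144934447, which spans the gene) had 1765 and 1606 scaled reads at day 6, against 866 and 849 at day 0, a log2 change of 0.97 ± 0.06 (adjusted p = 3.4e-50, limma). Of all regions 99.6% had a lower log2 change. Cyp26b1 followed with 1093 and 1034 scaled reads at day 6, against 603 and 624 at day 0 (0.79 ± 0.07), then Adh1 with 617 and 557 at day 6, against 369 and 362 at day 0 (0.68 ± 0.08), Stra6 (0.67 ± 0.06) and the body of Aldh1a2 (0.64 ± 0.07), each with an adjusted p of 4.3e-15 or below (limma).

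The H3.3 region over Cyp26c1 and Cyp26a1 was higher by 0.26 ± 0.06 (adjusted p = 1.6e-05, limma), and the region at the Aldh1a2 start by 0.23 ± 0.10 (adjusted p = 0.028, limma), a call that was lost without any single library (0.0683 to 0.137) and by the authors' false discovery rate of 0.14. The 109-kb region that holds Crabp2 and other genes was lower by -0.21 ± 0.06 (adjusted p = 0.0005, limma), which was lost without either day 0 library (0.0735 and 0.128). Crabp1 (0.11 ± 0.10, adjusted p = 0.325, limma) and a second part of the Aldh1a2 body (-0.03 ± 0.09, adjusted p = 0.799, limma) were not called. No H3 region lay at the genes. The limma test draws on the spread of all regions, since each region leaves 2 residual degrees of freedom.

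The scale of these tables matters for direction. The median log2 change over all regions was -0.13 in H3K27me3 and -0.12 in H3.3. With each library centred on its own median, 2599 regions were higher and 2450 lower in H3K27me3, in place of 583 higher and 4131 lower, and 4107 were higher and 5424 lower in H3.3, in place of 2732 higher and 6466 lower. On the centred scale all 7 H3K27me3 regions of the genes were still called lower, with log2 values from -0.15 to -1.88, and the same 8 H3.3 regions were called in their directions.

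**Figure D5:**
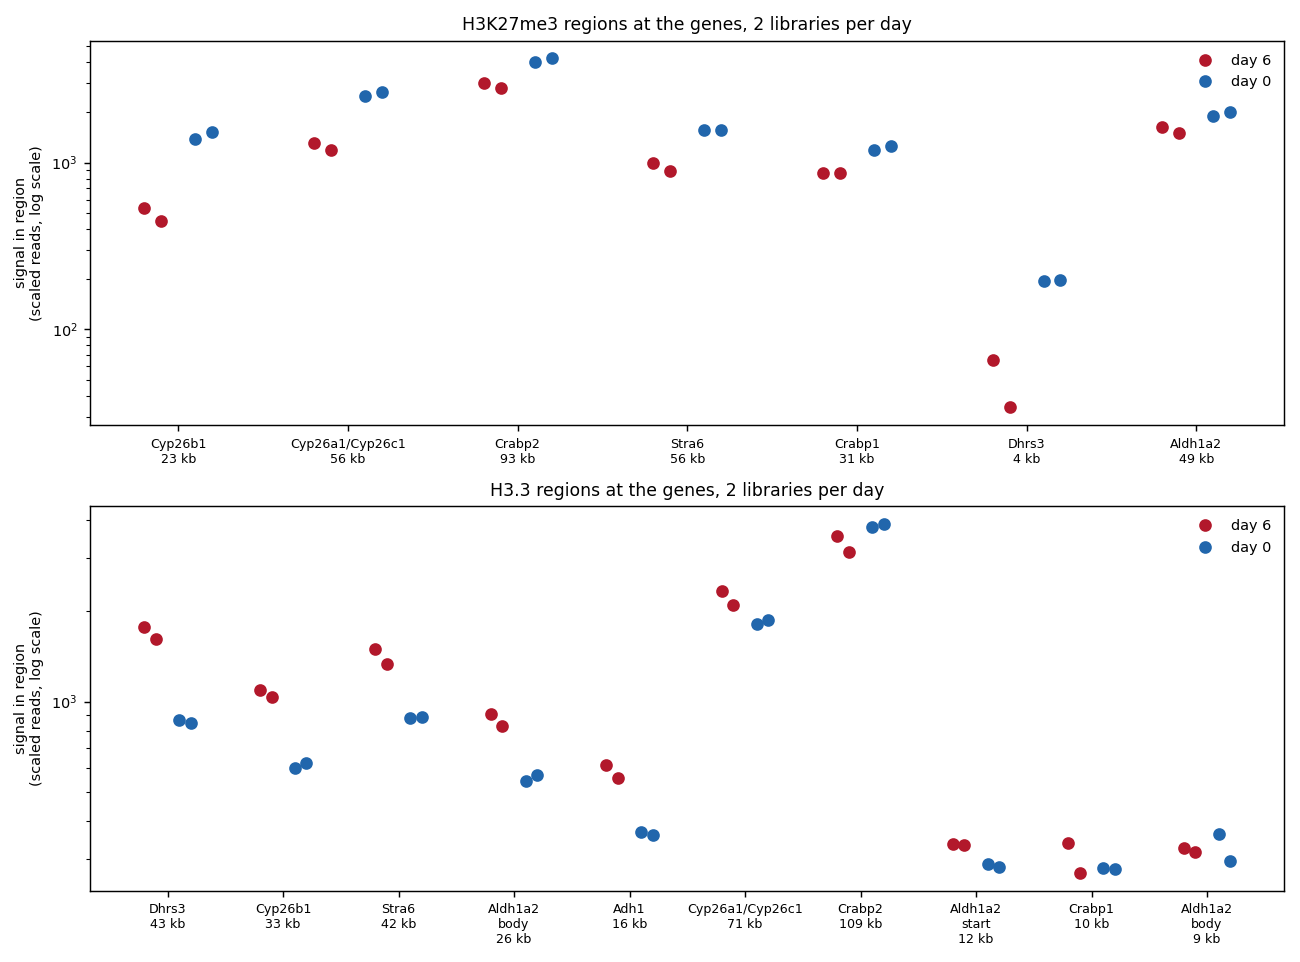
Scaled reads per ChIP library (points, log axis) in the authors' H3K27me3 regions (top) and H3.3 regions (bottom) at the genes, with the length of each region under its name; red is day 6 and blue day 0. The red points lie below the blue ones in all 7 H3K27me3 regions, from 65.2 and 34.0 against 196 and 198.5 at Dhrs3 to 1641 and 1509 against 1895 and 2003 at Aldh1a2, and above them in 7 of the 10 H3.3 regions. The share of all regions with such gaps was not counted.

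Set side by side for WT cells, Dhrs3 and Cyp26b1 had the largest H3K27me3 losses and the largest H3.3 gains of the genes' regions. The order did not go on alike: the region over Cyp26c1 and Cyp26a1 came next in H3K27me3 loss (-1.04) with an H3.3 gain of 0.26, Stra6 had a loss of -0.73 with a gain of 0.67, and Aldh1a2 had the smallest loss (-0.31) with a gain of 0.64 in its body. The RNA of Dhrs3, Cyp26b1 and Stra6 at day 6 was a mean of 6.16 ± 0.64, 614 ± 25.7 and 219 ± 11 CPM in 2019 (SD, n = 2). Adh1 reached 15.0 ± 0.10 CPM with no H3K27me3 region and no K27me3 peak at its start at either day. Crabp1 kept H3K27me3 at its start in both day 6 duplicates while its RNA stood at 125 ± 2.4 CPM in WT of 2019 and 26.7 ± 7.9 CPM in WT of 2020 at day 6. The H3K27me3 and H3.3 regions set side by side are not the same stretches, and their lengths differ from gene to gene. At Dhrs3 they were 3.66 kb at the start in H3K27me3 and 43.4 kb in H3.3. Bulk data do not tell whether RNA and mark came from the same cells.

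The low count of Dhrs3 differs from the authors' deposited table of WT day 6 against day 0. Its day 6 mean in the authors' deposited table was 207 CPM, against 6.57 CPM when the same 2 libraries of the count data are scaled by their gene counts alone, a ratio of 31.6. Of 12245 genes at 1 CPM or more in both sources, 94 (0.768%) had a higher ratio, and the median ratio was 0.919. Cyp26c1 was the other member that departed, with 15.4 CPM in the authors' deposited table against 7.27 CPM (ratio 2.12), and the remaining 7 members had ratios of 0.911 to 0.966. Dhrs3 lies within the annotated span of Vps13d, though their curated exons share 0 bp, and the gene models and strand setting behind the counts are not given in the sources used here. The cause was not tested, and the level of Dhrs3, but not its direction, is uncertain: the authors' deposited table gave a log2 change of 7.50.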

How the data were processed

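Poly(A) RNA went into strand-specific libraries, per the labels' protocols. The submitters' processing notes name STAR 2.5.2a, HTSeq and mm10 for RNA. The authors deposited whole counts per gene symbol; whether strand was used in counting is not given in the sources used here. Reads without a gene, left out of library sizes, were 25.7% to 43.3% of a library in 2019 and 11.3% to 16.8% in 2020. The authors' deposited table for WT of 2019 holds a log2 fold change, adjusted p-values and group means in CPM; the submitters' notes name DESeq2. For ChIP, the authors called peaks with MACS2 2.2.6 without a control (p threshold 0.01, minimum length 1000 bp, maximum gap 5000 bp), per the file headers. Calls have a fold enrichment and a p as −log10, as deposited, and the shorter filtered list of each library gave the peaks counted here. The authors' region tables hold for every library a signal, then a log2 difference (day 0 over day 6) and p-values; the submitters' notes name DiffBind. Their signal was whole reads times a library factor: 100% of values came out whole within 0.05 read. On those reads edgeR, an alternative chosen after seeing the data, called 4711 H3K27me3, 9188 H3.3 and 3451 H3 regions, against 4714, 9198 and 3457 on the signal.

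Counts were tested with edgeR 4.0.16 (R 4.3.3): filterByExpr, TMM, 1 mean per group, quasi-likelihood F-test, Benjamini-Hochberg adjustment over all genes and a threshold of 0.05. The 6 libraries of 2019 and the 11 of 2020 were fitted apart, and all 17 for the comparison of years. The lone WT library of 2020 at day 0 is assumed to vary like the other groups. Standard errors are the log2 change over the square root of the F statistic and approximate. Regions were tested as log2(signal + 1) with limma 3.58.1. Exact intervals of count ratios are at 95%. Both tests were checked on simulated data. Positions of genes come from RefSeq on mm10. With 2 libraries a group, no exact permutation test over samples can reach 0.05, so p-values come from the fits across all features. All 9 genes are named. Of the 36 other retinoid genes, those past the threshold with the largest changes could be named, at most 4 per comparison, besides counts and the gene names behind small counts. Rarb was named as a receptor. The values of 1 listed gene are not reported here. The genes and lists were chosen with earlier results of these data known. Alternatives were DESeq2 size factors, no count filter, DESeq2 1.42.0, 1 fit of all libraries, a replicate block, other pseudocounts, centring, other windows and enrichments, and leaving out each library.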

Additional observations from a re-analysis of the deposited data

Results flagged for a closer look

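Differences in the change from day 0 to day 6 between lines or series, tested by interaction terms in edgeR, marked 5 results. Aldh1a2 changed more in H3.3K27A than in the knockout, by a log2 value of 1.53 (adjusted p = 0.035), with both day 6 libraries of H3.3K27A above both of the knockout. In WT, the change was smaller in 2020 than in 2019 for Cyp26c1 (-6.56), Crabp1 (-2.24), Stra6 (-1.41) and Aldh1a2 (-1.52), with adjusted p-values of 0.0062, 0.0052, 0.021 and 0.022 (edgeR). The day 6 libraries of 2020 were below both of 2019 for each of these 4 genes. Stra6 and Aldh1a2 were also higher at day 0 in 2020, at 1.47 and 3.66 CPM against means of 0.81 and 1.87 CPM in 2019. No group had 4 or more libraries, so no single library could be tested as standing apart.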

How the results depend on the processing

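Day 6 against day 0 kept its calls, though not its sizes: all 9 genes in 2019 and all tested genes but Crabp1 in 2020 passed under each alternative run and each left-out library, while the log2 changes of Cyp26a1, Cyp26b1, Stra6 and Adh1 from day 0 in 2019 moved by over 1.5 times in fold without 1 day 0 library (Adh1 at day 6 was 7.16 or 10.40 in place of 7.74). The log2 change of Crabp1 in the knockout was -0.66 to 0.88 over left-out libraries. Of 532 log2 values of single genes and regions under other alternatives, 515 kept direction and call, and of 416 without 1 library, 353 did. The value that turned among the first of these was 0.050 for the uncalled second Aldh1a2 body region in H3.3 on the centred scale. Without 1 library, directions turned for Cyp26a1 at day 0 (-0.90 to 2.23 in H3.3K27A against WT, -0.74 to 2.39 against the knockout), Cyp26b1 at day 0 (-0.37 to 2.17 against the knockout), in the knockout against WT at day 6 for Dhrs3 (-0.27 to 0.42), Crabp1 (-1.09 to 0.44) and Adh1 (-0.21 to 0.62), for Crabp1 in H3.3K27A against the knockout (-0.15 to 1.39), and for the H3.3 regions of Crabp1 (-0.054 to 0.28) and of the second Aldh1a2 body part (-0.18 to 0.12). The cause was not tested.

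Counts of called genes moved by over 1.5 times in the small comparisons. In the order knockout against WT at day 0, H3.3K27A against WT at day 0, H3.3K27A against WT at day 6, H3.3K27A against the knockout at day 0, and the change to day 6 in the knockout and in H3.3K27A against WT, the main counts were 18, 256, 301, 187, 12 and 113. Without a count filter they were 33, 392, 586, 336, 199 and 242, and in 1 fit of all 17 libraries 29, 445, 649, 366, 149 and 259. DESeq2 moved the first to 42, the fourth to 345 and the last 2 to 203 and 271. The change to day 6 in H3.3K27A against the knockout had 796 genes, and 1281 in the fit of 17 libraries, with 3 members called without a filter and 2 in that fit, in place of 1. Left-out libraries gave 3, 40 to 50, 9 to 24, 19 to 25, 0 to 2805 and 28 to 36 genes in the same order, 170 to 3897 for the change in H3.3K27A against the knockout, 210 to 6002 for the knockout against WT at day 6 (1683) and 719 to 5794 for H3.3K27A against the knockout at day 6 (2756). The upper ends of the last 3 and of the change in the knockout against WT came without the second knockout library of day 6. Members called ranged over 0 to 1 in the comparisons with H3.3K27A at day 0, 0 in H3.3K27A against WT at day 6, 0 to 5 in the knockout against WT at day 6, 2 to 5 in H3.3K27A against the knockout at day 6, 0 to 2, 0 to 1 and 0 to 4 in the changes of the knockout against WT, H3.3K27A against WT and H3.3K27A against the knockout, and 2 to 4 between the years.

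Same-numbered RNA libraries did not deviate alike across groups (r -0.56 to 0.28). At day 6 in 2020, r was -0.56 between the knockout and WT, -0.34 between the knockout and H3.3K27A, and 0.28 between H3.3K27A and WT. Deviations were thus partly shared there, with the knockout numbers reversed. In ChIP duplicates r was -0.10 to -0.01. As numbered, no pairing held across groups, so the numbers were not taken as pairs. With a replicate block the 6 counts above were 5, 117, 145, 85, 0 and 36, the knockout against WT at day 6 had 1001, and the change in H3.3K27A against the knockout had 451 genes and 0 members. The block ended 2 member calls, of Cyp26a1 in H3.3K27A against the knockout at day 6 (adjusted p = 0.0764) and of Aldh1a2 in the change between these lines (0.0602). With the knockout numbers crossed in the block, a pairing chosen after seeing the data like the next one, the change in the knockout against WT had 49 genes; with the H3K27me3 day 6 numbers crossed, 5246 regions were called, in place of 4205 with the block as numbered.

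H3 regions numbered 3457 and were 1710 by the authors' false discovery rate and 2264 to 3130 without 1 library. At an enrichment of at least 5, members with a peak fell to 1 in H3K27me3 at day 0 and to 0 in H3K27me3 at day 6, H3.3K27me3 at day 0 and H3.3 at both days. With the gene body as the window, or with replicate 1 alone, 1 member (Aldh1a2) had H3.3K27me3 and 8 had H3.3 at day 6, and replicate 2 alone gave 5 with H3.3 at day 0. Depth limits Cyp26c1, Dhrs3 and Adh1, whose day 0 levels rest on 0 to 5 reads a library.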
